A study of Arabidopsis thaliana with 6 samples.

Results

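The genes described here are the 9 Arabidopsis thaliana genes of the RPW8 family that were chosen by gene code from a table of 32313 codes: HR1 (AT3G50450), HR2 (AT3G50460), HR3 (AT3G50470) and HR4 (AT3G50480), the tandem of homologs of RPW8 on chromosome 3, and the helper receptor genes ADR1 (AT1G33560), ADR1-L1 (AT4G33300), ADR1-L2 (AT5G04720), NRG1.1 (AT5G66900) and NRG1.2 (AT5G66910). Transcripts were counted by RNA-seq in 3 libraries of line BP12-2 and 3 libraries of the Columbia wild type (WT). Seedlings of both groups were 15 days past germination when they were given 10 µg/ml rapamycin in 0.5 MS medium for 3 days. Values listed for the libraries of a group follow replicates 1, 2 and 3. The labels call BP12-2 a TOR knockdown line, and BP12 lines carry the yeast FKBP12 protein, through which rapamycin can inhibit the plant TOR kinase. BP12-2 is a single line, and no seedlings given the DMSO solvent alone were analysed here, so a difference that BP12-2 has without rapamycin cannot be told apart from one that needs the drug. Nothing in the labels states that replicate libraries came from separate batches of seedlings, so p-values reflect the spread among these libraries, and that spread may be technical.

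RPW8 proteins are small plant proteins that give resistance to powdery mildew fungi. The Columbia accession lacks RPW8.1 and RPW8.2 and carries the HR genes, and HR4 takes part in an autoimmune reaction with some alleles of the receptor gene RPP7 in hybrids between accessions. ADR1 and NRG1 proteins are immune receptors with an RPW8-type domain at their N-terminus; they act downstream of other receptors as helpers, ADR1 proteins mainly with EDS1 and PAD4 and NRG1 proteins mainly with EDS1 and SAG101, and can form calcium-permeable channels in the plasma membrane.

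Total counts ran from 6706610 to 17092773 in BP12-2 libraries and from 7611017 to 16371859 in WT libraries. The TOR transcript was at 30.9 ± 2.72 CPM in BP12-2 and 36.2 ± 2.16 CPM in WT (SD, n = 3), where CPM is the count relative to the TMM-scaled library size, and had an adjusted p of 0.292 in the quasi-likelihood test of edgeR. Clock transcripts set BP12-2 replicate 1 and WT replicate 3 off from the other 4 libraries: LHY, a morning-phased clock gene, was at 23.1 and 27.0 CPM in these 2 libraries and between 140 and 193 CPM in the other 4. Seedling libraries held green and root tissue, and none of the 5 green and 6 root markers was at 0 in any library. The summed green markers were at 24590 to 25180 CPM in BP12-2 libraries and 19000 to 20160 CPM in WT libraries, and the summed root markers at 1009 to 1239 CPM in BP12-2 libraries and 630 to 774 CPM in WT libraries. All 5 green markers and 5 of 6 root markers had positive log2 fold changes. Of the 5 green and 6 root markers 0 passed the edgeR quasi-likelihood test (2 green and 4 root at an unadjusted p under 0.05). Such p-values were common in that test: one of 0.0495 had rank 3522 among the 19436 tested genes. DESeq2 and the exact test each called 1 green and 2 root markers, where they called 3.19% and 4.33% of all tested genes. Both sums were higher in each BP12-2 library than in each WT library; their part in the differences below was not tested, and in whole seedlings fewer cells of a type and less RNA per cell cannot be told apart. The column names hold the code L08 for all BP12-2 libraries and L07 for all WT libraries; its meaning was not found in the labels, and whatever it marks cannot be told apart from genotype.

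The HR genes lie side by side on the plus strand of chromosome 3, from 18722234 to 18734420 in the TAIR10.1 annotation. The 120 bases before the annotated start of HR1, HR3 and HR4 are shown because HR4 carries the largest difference of the members tested, HR3 is its neighbour, and all 3 windows hold the core of the W-box, the motif bound by WRKY factors of the defence response. The sequences are from the RefSeq TAIR10.1 genome, plus strand, 5′ to 3′, and capitals mark the W-box core, which stands there as the reverse complement of TTGAC.
HR1, chr3:18722114-18722233: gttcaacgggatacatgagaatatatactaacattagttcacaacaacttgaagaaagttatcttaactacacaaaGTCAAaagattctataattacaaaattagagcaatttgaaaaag
HR3, chr3:18728815-18728934: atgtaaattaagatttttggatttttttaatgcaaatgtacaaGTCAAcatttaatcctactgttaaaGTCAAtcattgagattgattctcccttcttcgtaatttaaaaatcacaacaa
HR4, chr3:18732901-18733020: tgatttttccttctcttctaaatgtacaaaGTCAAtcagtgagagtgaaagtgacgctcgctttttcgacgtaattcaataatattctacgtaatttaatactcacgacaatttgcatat
The core begins 90 bases before the HR4 start, 77 and 52 bases before the HR3 start and 44 bases before the HR1 start, each time within the longer form TTGACT. Of 31772 windows of this length before counted genes, 24.7% held TTGAC and 9.65% held TTGACT on either strand, so the match is common. Neither was found in the windows of HR2, ADR1, ADR1-L1, ADR1-L2, NRG1.1 and NRG1.2. TGACG and CACGTG were searched as well: TGACG stood once each before HR4 and NRG1.2, without overlap with a TTGAC core, and in 3210 of all windows, while CACGTG stood before none of the 9 genes and in 3.73% of all windows. A match is a description of these letters and not a binding site.

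HR4 was the member with the largest difference between the groups. Its level was 19.3, 19.1 and 17.6 CPM across the BP12-2 libraries, against 53.3, 48.0 and 38.03 CPM across the WT libraries. The BP12-2 libraries were close to each other and all lay below the lowest WT library, which was WT replicate 3. The raw counts behind these values were 127 to 302 in BP12-2 and 414 to 647 in WT. HR4 fell to 18.7 ± 0.963 CPM in BP12-2, against 46.5 ± 7.75 CPM in WT (SD, n = 3 each), a 2.49-fold lower level with a log2 fold change of -1.31 ± 0.14 (SE).

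HR4 passed the edgeR quasi-likelihood test (adjusted p = 0.0391), with 0.0669% of the 19436 tested genes past the same threshold of 0.05. The family was chosen with this contrast in view, so that call and all differences between BP12-2 and WT given for the members are a description and support nothing further. The call was lost when any of 4 libraries was omitted: when BP12-2 replicate 1, 2 or 3 was left out the adjusted p of the edgeR test was 0.0696, 0.140 and 0.299, and it was 0.149 without WT replicate 2. It was 0.0386 without WT replicate 1 and 0.0338 without WT replicate 3. The log2 fold change itself stayed between -1.44 and -1.21 over these 6 omissions. Over the whole table these fits called 9, 1 and 0 genes without BP12-2 replicates 1, 2 and 3. They called 56, 1 and 2 genes without WT replicates 1, 2 and 3.

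The other HR genes were scarce. HR3 had 1.89, 0.902 and 0.988 CPM across the BP12-2 libraries, against 1.67, 1.56 and 3.01 CPM across the WT libraries. The groups overlapped, and in each group the highest library was the one set off by its clock transcripts. Its log2 fold change of -0.77 ± 0.40 (SE) came from 6 to 19 reads in a BP12-2 library and 13 to 50 in a WT library, and it was -0.35 without WT replicate 3 and -1.15 without BP12-2 replicate 1. HR1 was at 5 to 10 reads per library in BP12-2 and 3 to 15 in WT, or 0.498 to 0.751 CPM in BP12-2 and 0.371 to 0.903 CPM in WT, with WT libraries both below and above the BP12-2 range. HR2 was at 0, 0 and 1 read in BP12-2 replicates 1 to 3 and at 0, 0 and 2 reads in WT replicates 1 to 3, where a count of 0 allows up to 0.223 to 0.451 CPM, or 3 counts of the library total. Neither HR1 nor HR2 passed the filter on low counts, so 7 of the 9 members were tested.

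**Figure D1:**
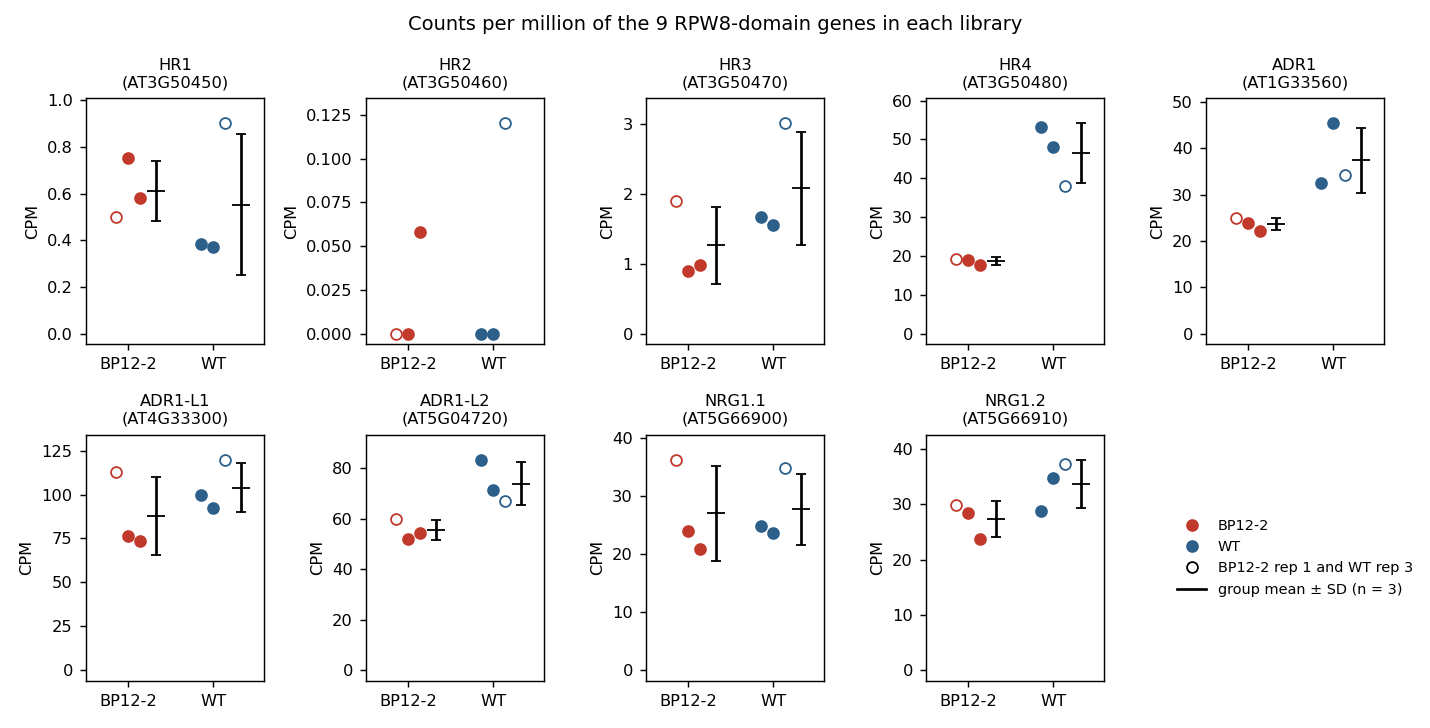
CPM (y axis, linear, a separate scale for each gene) of the 9 genes in BP12-2 (red) and WT (blue) libraries, with the group mean ± SD (n = 3), which is left out for HR2; open circles mark BP12-2 replicate 1 and WT replicate 3. For HR4, ADR1 and ADR1-L2 all BP12-2 points lie below all WT points, and for ADR1-L1, NRG1.1 and HR3 the 2 open circles are the highest of the 6.

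Among the helper receptors the ADR1 genes averaged lower in BP12-2, and 0 of the 3 passed the quasi-likelihood test (2 at an unadjusted p under 0.05). In that test an unadjusted p of 0.0495 had rank 3522 among the 19436 tested genes, so values under 0.05 were common. ADR1, the founding member, whose overexpression activates disease resistance, had 24.9, 23.8 and 22.2 CPM across the BP12-2 libraries, against 32.6, 45.4 and 34.2 CPM across the WT libraries. All BP12-2 libraries lay below all WT libraries, and the means were 23.6 ± 1.36 CPM in BP12-2 and 37.4 ± 6.97 CPM in WT (SD, n = 3 each), a log2 fold change of -0.67 ± 0.14 (SE). ADR1 did not pass the quasi-likelihood test (adjusted p = 0.0949), but passed with DESeq2 and with the edgeR exact test, which called 3.19% and 4.33% of all tested genes, and 1.73% and 2.28% of all tested genes as lower in BP12-2.

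ADR1-L2 had 60.0, 52.2 and 54.3 CPM across the BP12-2 libraries, against 83.3, 71.3 and 67.0 CPM across the WT libraries, again with no overlap and with a log2 fold change of -0.41 ± 0.11 (SE; edgeR adjusted p = 0.134). ADR1-L1, the member with the most counts, had 113, 76.5 and 73.8 CPM across the BP12-2 libraries, against 99.7, 92.6 and 120 CPM across the WT libraries. Here the groups overlapped, with BP12-2 replicate 1 above 2 of the 3 WT libraries, and the log2 fold change was -0.25 ± 0.18 (SE). That value was -0.47 without BP12-2 replicate 1, -0.16 without BP12-2 replicate 2, and -0.13 without either BP12-2 replicate 3 or WT replicate 3. ADR1-L1 shares exon bases with AT4G33290 and AT4G33310, which lie on the opposite strand and were counted too, and the strand setting of the counting was not stated, so part of its reads may be assigned otherwise.

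The NRG1 genes form a tandem on the minus strand of chromosome 5, and both had groups that overlapped. NRG1.1 had 36.2, 23.9 and 20.9 CPM across the BP12-2 libraries, against 24.8, 23.6 and 34.7 CPM across the WT libraries. The groups covered nearly the same range, and the log2 fold change of -0.05 ± 0.23 (SE) turned positive without BP12-2 replicate 2, without BP12-2 replicate 3 or without WT replicate 3 (0.02, 0.12 and 0.15). NRG1.2 had 29.9, 28.4 and 23.7 CPM across the BP12-2 libraries, against 28.8, 34.8 and 37.3 CPM across the WT libraries, with overlap and a log2 fold change of -0.31 ± 0.13 (SE). NRG1.1 and NRG1.2 share 2.47% and 2.56% of their 50-base words (either strand) with each other. The transcripts of ADR1-L1 share 20.1% of theirs with other annotated transcripts. The largest share, 14.4%, is with AT4G08785, whose exons overlap those of ADR1-L1 on the opposite strand. The other 6 members share 0% with any annotated transcript.

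In total 1 of the 7 tested members, HR4, passed the quasi-likelihood test, and it was lower in BP12-2, where 0.0617% of all tested genes were called lower and 0.00515% higher. In 3 of the 7 (HR4, ADR1 and ADR1-L2) all BP12-2 libraries lay below all WT libraries, and in 0 of the 7 above them; of all tested genes 24.3% had groups that did not overlap, 12.2% with BP12-2 below and 12.1% with BP12-2 above. The log2 fold changes of the 7 ran from -1.31 to -0.05 with a median of -0.41, where the median of all tested genes was 0.01. HR1 and HR2 are not among them. With DESeq2, the exact test or a term for BP12-2 replicate 1 and WT replicate 3 the count was 2, HR4 and ADR1; with that term 5.10% of all tested genes were called, 2.59% of all lower in BP12-2.

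**Figure D2:**
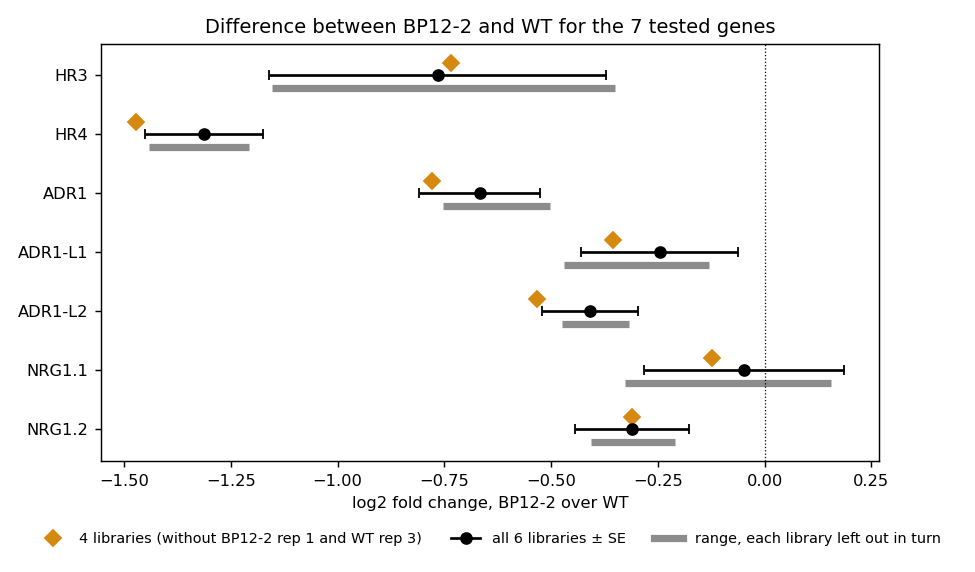
Log2 fold change of BP12-2 over WT (x axis) for the 7 tested genes: black points with SE for all 6 libraries, diamonds for the 4 libraries without BP12-2 replicate 1 and WT replicate 3, and grey bars for the range when each library is left out in turn. HR4 lies at -1.31 with all libraries and -1.47 in the 4, and the grey bar crosses 0 for NRG1.1 only.

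Some members were high in the 2 libraries set off by their clock transcripts and others were not. ADR1-L1, NRG1.1 and HR3 were higher in both BP12-2 replicate 1 and WT replicate 3 than in each of the other 4 libraries, as were 11.8% of all tested genes, and HR4, ADR1, ADR1-L2 and NRG1.2 were not. In the 4 libraries alone HR4 had a log2 fold change of -1.47 and passed (edgeR adjusted p = 0.0290, with 0.197% of 19298 genes called, 0.187% lower), ADR1 was at -0.78, ADR1-L2 at -0.53 and ADR1-L1 at -0.35. Between BP12-2 replicate 1 and WT replicate 3, a pair that allows no test, the log2 CPM of HR4 differed by -0.97, that of ADR1 by -0.46, that of ADR1-L2 by -0.16 and that of ADR1-L1 by -0.08. The same difference in log2 CPM was -0.62 for HR3 and -0.32 for NRG1.2 in the pair, and the BP12-2 minus WT mean difference in the other 4 libraries was -0.68 for HR3 and -0.29 for NRG1.2. NRG1.1 was at 0.06 in the pair and -0.12 in the other 4. NRG1.1 thus had opposite signs in the 2 sets of libraries, and the other tested members had negative differences in both. The share of all tested genes with negative differences in both sets was not computed. Both sets are parts of the data on which the family was chosen.
The 120 bases before the ADR1-L1 start are shown because this gene stood high in these 2 libraries and its window holds the evening element AAAATATCT, a motif known from clock-regulated promoters, as did 1.07% of all 31772 windows (either strand) and no other member. The sequence is from RefSeq TAIR10.1, minus strand, 5′ to 3′, with the element, present as its reverse complement, in capitals. The window overlaps AT4G08785, a noncoding gene on the plus strand.
ADR1-L1, chr4:16056527-16056646: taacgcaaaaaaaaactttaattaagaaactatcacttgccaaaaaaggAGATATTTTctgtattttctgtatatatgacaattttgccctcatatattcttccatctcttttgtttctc

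Per kilobase of exon the 9 genes fell into levels far apart. RPKM here is CPM divided by the length of the union of exons in kilobases. The lengths are from TAIR10.1, while the reads were aligned to TAIR9. HR4 averaged 16.8 ± 0.869 RPKM in BP12-2 and 41.9 ± 6.99 RPKM in WT (SD, n = 3). In the WT libraries it was the highest of the 9, and in the BP12-2 libraries it lay below ADR1-L1 (21.1 ± 5.26 RPKM in BP12-2, 25.0 ± 3.38 in WT) and ADR1-L2 (19.6 ± 1.43 in BP12-2, 26.0 ± 2.97 in WT) on average. With coding length in place of exon length the order of HR4 and ADR1-L2 in BP12-2 turned, at 30.95 RPKM for HR4 and 22.8 RPKM for ADR1-L2, and HR4 still averaged below ADR1-L1 at 35.8 RPKM. NRG1.2, ADR1 and NRG1.1 followed at 10.5, 10.4 and 9.26 RPKM over all 6 libraries, then HR3 at 1.41, HR1 at 0.628 and HR2 at 0.0312 RPKM.

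With coding length HR4 lay below ADR1-L1 in 2 of the 6 libraries. With exon length the order of HR4 and ADR1-L1 split by genotype: HR4 lay below ADR1-L1 in all 3 BP12-2 libraries and above it in all 3 WT libraries. Other neighbours in the order did not differ beyond their spread: ADR1-L1 exceeded ADR1-L2 in 2 of 6, NRG1.2 exceeded ADR1 in 4 of 6 and ADR1 exceeded NRG1.1 in 4 of 6. ADR1-L2 exceeded NRG1.2 in 6 of 6, by 12.3 ± 3.77 RPKM (SD), and NRG1.1 exceeded HR3 in 6 of 6, by 7.85 ± 1.72 RPKM. HR3 exceeded HR1 in 5 of 6 and HR1 exceeded HR2 in 6 of 6. HR4 was counted 10.2 to 21.2 times as often as its neighbour HR3 in BP12-2 libraries and 12.6 to 31.8 times in WT libraries.

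**Figure D3:**
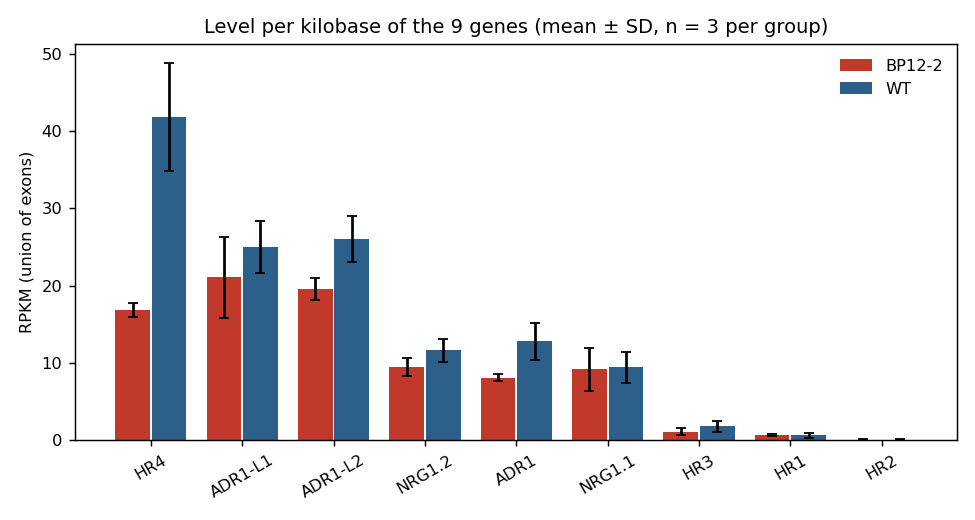
Level per kilobase of exon (RPKM, y axis) of the 9 genes, as mean ± SD over 3 BP12-2 libraries (red) and 3 WT libraries (blue), ordered by the mean over all 6. HR4 stands at 16.8 RPKM in BP12-2 and 41.9 in WT, and HR3, HR1 and HR2 lie at or under 2 RPKM in both groups.

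The genes on either side of the tandems were tested in the same fit. Of the 5 counted genes on each side of the HR tandem 7 had enough counts, and 0 passed the edgeR quasi-likelihood test, DESeq2, the exact test or limma voom (0 at an unadjusted p under 0.05 with the quasi-likelihood test and 1 with each of the other 3). Their log2 fold changes ran from -0.22 to 0.88. AT3G50440, a methylesterase gene just before HR1, was at 36.2 ± 7.30 CPM in BP12-2 and 32.3 ± 6.22 CPM in WT. AT3G50490, just after HR4, was at 0 counts in every library, and AT3G50500, which encodes the SNF1-related protein kinase SnRK2.2, was at 45.5 ± 19.3 CPM in BP12-2 and 45.4 ± 17.7 CPM in WT. The NRG1 tandem was taken here to include AT5G66890, the gene beside NRG1.1, which had too few counts to test. Around it 10 of 10 flanking genes were tested, and 0 passed any of the 4 tests (0 at an unadjusted p under 0.05 with each). The log2 fold changes of these flanking genes ran from -0.47 to 0.22.

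**Figure D4:**
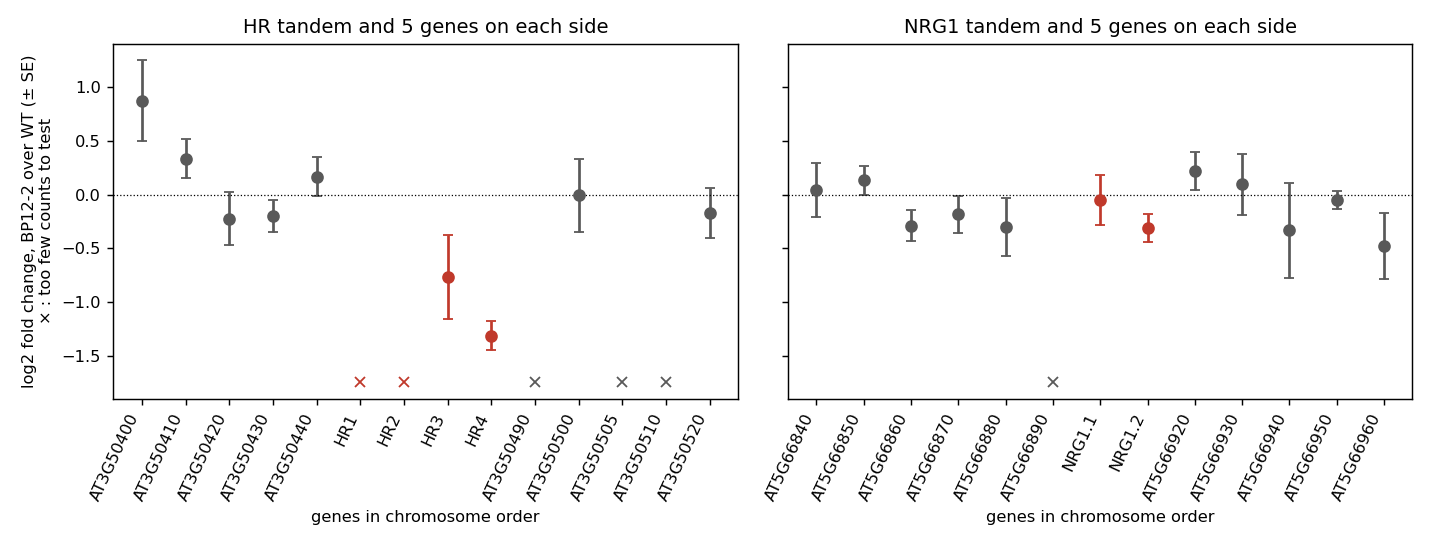
Log2 fold change of BP12-2 over WT with SE (y axis) for the HR tandem (left) and the NRG1 tandem with AT5G66890 (right) and 5 counted genes on each side, in chromosome order; members are red, other genes grey, and crosses mark genes with too few counts to test. HR3 at -0.77 and HR4 at -1.31 lie below all tested flanking genes of the HR tandem.

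Relatives outside the 9 differed in sign. AT3G26470, annotated as an RPW8 domain-containing protein, had 28.0, 23.1 and 27.0 CPM across the BP12-2 libraries, against 21.5, 21.2 and 21.5 CPM across the WT libraries. All its BP12-2 libraries lay above all WT libraries, opposite to HR4, with a log2 fold change of 0.29 ± 0.10 (SE; edgeR adjusted p = 0.201; 0 of the 2 tested relatives were called by DESeq2, the exact test or limma voom either); its exons overlap those of AT3G26480 on the other strand. DAR5, a relative of the DA1 peptidase genes, was at 4.32 ± 1.25 CPM in BP12-2 and 5.78 ± 0.206 CPM in WT, with overlap. ADR1-L3 was at 0 counts in every library, and AT5G66890, the leucine-rich repeat gene beside NRG1.1, was too low to test.

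Of the 21 genes on the list of EDS1 partners and salicylate defence, 19 were tested and 1, UGT76B1, passed the quasi-likelihood test, lower in BP12-2. UGT76B1, which glycosylates salicylic acid among other substrates, fell to 38.6 ± 1.80 CPM in BP12-2, against 66.3 ± 2.63 CPM in WT (SD, n = 3; edgeR adjusted p = 0.0391). The list median was a log2 fold change of -0.45, against 0.01 for all tested genes, with 17 negative and 2 positive values, where 49.2% of all tested genes were negative. In 8 of the 19 all BP12-2 libraries lay below all WT libraries, against 12.2% of all tested genes. The count was 1 without BP12-2 replicate 1 (WRKY70 in place of UGT76B1) and without WT replicate 1, and 0 without BP12-2 replicate 2, BP12-2 replicate 3, WT replicate 2 or WT replicate 3. DESeq2 and the exact test called 4 each, where they called 3.19% and 4.33% of all tested genes. The list was chosen with results of these data known.

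None of the partners of the helper receptors passed the quasi-likelihood test, DESeq2 or the exact test. EDS1, which pairs with PAD4 or SAG101 to signal from TIR-type receptors, had 33.3, 35.0 and 35.1 CPM across the BP12-2 libraries, against 44.9, 41.0 and 37.9 CPM across the WT libraries. The groups did not overlap, and EDS1 did not pass (log2 fold change -0.26 ± 0.10, SE). PAD4 was at 33.6 ± 10.0 CPM in BP12-2 and 37.4 ± 1.89 CPM in WT, and SAG101 at 11.3 ± 2.65 CPM in BP12-2 and 14.4 ± 1.71 CPM in WT, both with overlap. AT3G48080, the gene next to EDS1, was at 5.45 ± 1.66 CPM in BP12-2 and 5.90 ± 0.610 CPM in WT.

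Genes of salicylate synthesis and its control spanned a wider range of differences, none of which passed the quasi-likelihood test (DESeq2 called PBS3, PR1 and WRKY70, and the exact test PBS3, SARD1 and WRKY70). ICS1, the isochorismate synthase, was at 5.63 ± 0.955 CPM in BP12-2 and 7.20 ± 0.723 CPM in WT, and EDS5, which exports its product from the chloroplast, at 9.47 ± 1.15 CPM in BP12-2 and 9.54 ± 1.88 CPM in WT. PBS3, the next enzyme, had 6.68, 2.41 and 6.57 CPM across the BP12-2 libraries, against 13.9, 15.5 and 10.4 CPM across the WT libraries, with no overlap. The transcription factor genes SARD1 and CBP60G, which activate ICS1, had log2 fold changes of -1.25 ± 0.27 and -1.02 ± 0.31 (SE). WRKY70 had 32.2, 21.0 and 18.3 CPM across the BP12-2 libraries, against 69.1, 51.6 and 63.5 CPM across the WT libraries, a difference about as large as that of HR4 (log2 fold change -1.37 ± 0.22, SE; edgeR adjusted p = 0.0759). Among the salicylate receptors, NPR1 was at 41.3 ± 10.6 CPM in BP12-2 and 41.1 ± 5.49 CPM in WT, and NPR3 at 38.4 ± 3.35 CPM in BP12-2 and 47.4 ± 4.78 CPM in WT. NPR1 lay at nearly the same mean in both groups. NPR3 was lower in all BP12-2 libraries, but only just: BP12-2 replicate 1 was at 41.87 CPM and WT replicate 3 at 41.94 CPM. PR1, a marker of salicylate responses, was at 8.56 ± 2.65 CPM in BP12-2 and 18.3 ± 7.45 CPM in WT, with overlap.

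**Figure D5:**
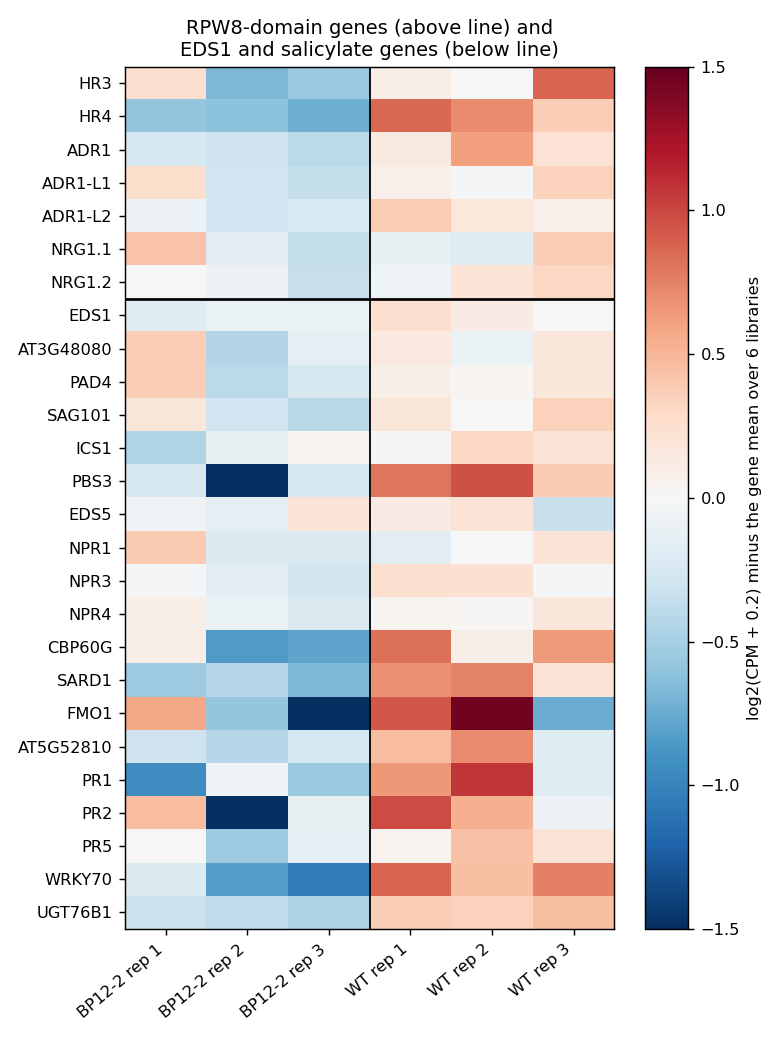
Level of each tested member (above the line) and each tested gene of the EDS1 and salicylate list (below it) in the 6 libraries, as log2(CPM + 0.2) minus the mean of the gene over all libraries (colour, red high and blue low, with the scale ending at -1.5 and 1.5). HR4 and UGT76B1 are low in all 3 BP12-2 libraries and high in all 3 WT libraries, while PAD4, SAG101, ADR1-L1 and NRG1.1 are higher in BP12-2 replicate 1 than in the other BP12-2 libraries.

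Receptors without an RPW8 domain had small differences. Of 18 such genes 17 were tested and 0 passed the quasi-likelihood test, DESeq2, the exact test or limma voom (2 at an unadjusted p under 0.05 with the quasi-likelihood test and 1 with each of the other 3). Their median log2 fold change was -0.11, with a range from -0.48 to 0.29. Of these values 13 were negative and 4 positive, where 49.2% of all tested genes were negative. The values of ADR1-L1, ADR1-L2, NRG1.1 and NRG1.2 also lay within that range. SNC1, a TIR-type receptor gene, was at 239 ± 69.6 CPM in BP12-2 and 236 ± 34.5 CPM in WT. AT1G58602 (RPP7), the most abundant of the list after SNC1, was at 188 ± 20.9 CPM in BP12-2 and 238 ± 36.7 CPM in WT. The groups of RPP7 overlapped, with a log2 fold change of -0.34 ± 0.14 (SE, edgeR adjusted p = 0.265). Of 7 chaperones and partners of receptors 0 passed any of the 4 tests (1 at an unadjusted p under 0.05 with each), with the chaperone gene HSP90.2 at 719.9 ± 133 CPM in BP12-2 and 744 ± 123 CPM in WT and HSP90.1 at 189 ± 44.2 CPM in BP12-2 and 195 ± 61.6 CPM in WT. Of 9 genes listed for a link to powdery mildew infection or defence 0 passed any of them (2 at an unadjusted p under 0.05 with each). Their log2 fold changes were 8 negative and 1 positive, with a median of -0.31. In 2 of the 9 all BP12-2 libraries lay below all WT libraries, against 12.2% of all tested genes. PEN3, a transporter of the penetration defence, was at 533 ± 310 CPM in BP12-2 and 758 ± 371 CPM in WT, and GRF6, a 14-3-3 protein, at 317 ± 2.26 CPM in BP12-2 and 310.0 ± 14.4 CPM in WT.

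Genes with a profile like that of 2 members were sought among 14813 other genes with a mean of at least 5 CPM, by the root mean square difference of mean-centred log2 CPM over the 6 libraries. Closest to HR4 were AT1G51820, a leucine-rich repeat protein kinase gene (0.17), AT5G23370, a GRAM domain gene (0.18), AT1G02920, a glutathione S-transferase gene (0.18), AT1G71880, the sucrose-proton symporter 1 gene (0.19), and AT2G27550 (0.21). AT1G51820 was at 3.61 ± 0.493 CPM in BP12-2 and 7.58 ± 1.36 CPM in WT, and AT1G02920 at 58.7 ± 8.77 CPM in BP12-2 and 138 ± 23.2 CPM in WT. Closest to ADR1-L1 were AT1G66180, an aspartyl protease gene (0.04), AT1G73830 (0.06), AT4G37190 (0.06), AT1G28380 (0.06) and SAG101 (0.06). AT1G28380 encodes a protein with a MAC/perforin domain. Within the family ADR1-L1 and NRG1.1 were the most alike, at 0.13.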

How the data were processed

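Total RNA of rapamycin-treated seedlings was sequenced, 3 libraries per group. The authors deposited raw counts per gene as whole numbers. Per the series' design text and the submitters' processing notes, paired-end reads were aligned to TAIR9 with Bowtie and counted with HTSeq; versions, counting mode and strand use are not stated in the sources used here. Groups and replicate numbers came from sample titles. Of 32313 codes 31786 are in the TAIR10.1 annotation, a later build, from which names, lengths, positions and sequences were read; no coordinates were converted. No library pair agreed within sampling noise (smallest chi-square per degree of freedom 10.9).

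Counts were filtered with filterByExpr (count minimum 10, total minimum 15), leaving 19436 genes, scaled by TMM and tested with the quasi-likelihood test of edgeR 4.0.16 (R 4.3.3), 2-sided, with genotype as the only term, Benjamini-Hochberg adjustment over all genes and 0.05 as the limit. SE was computed as the absolute log2 fold change divided by the square root of the F statistic. Alternatives used DESeq2 1.42.0 and limma 3.58.1. The quasi-likelihood, exact and DESeq2 tests were run on simulated counts in which genotype was the only effect set. The simulation left out the split of BP12-2 replicate 1 and WT replicate 3, so it cannot show how the tests behave on these libraries. Members and gene lists were chosen with earlier results of these data known. All members, tandem neighbours and the 5 nearest profiles were to be named; any gene of the EDS1 and salicylate list or the relatives could be; of the other lists those past the threshold or, failing that, the 2 most abundant. LHY, outside that rule, and the pair of libraries it sets off were picked with these values known. Columns of other samples numbered 0. The floor of 3 counts covers counting error only, while SD and SE also hold the spread among the libraries. Replicate numbers were not found to pair the libraries.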

Additional observations from a re-analysis of the deposited data

How the results depend on the processing

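The count of members past the threshold (1) was unchanged with RLE or upper-quartile factors, library totals, no filter, a minimum mean of 5 CPM, limma voom and the 4 libraries other than BP12-2 replicate 1 and WT replicate 3. It was 2 with DESeq2, 2 with the edgeR exact test and 2 with a term for the other 2 libraries, and it ranged from 0 to 1 when each library was left out. The EDS1 and salicylate count (1) was 2 without a filter, 4 with DESeq2, 4 with the exact test, 2 in the 4 libraries, 4 with the term, and 0 to 1 when each library was left out. The count for other receptors was 0 under all 17 alternatives. With the replicate block the counts were 0 members and 0 EDS1 and salicylate genes, and 0 genes of the whole table, against 13 without it. Same-numbered libraries did not deviate together (correlations of -0.31, 0.06 and -0.30), and no BP12-2 library correlated best with its own number. Over the whole table the count of 13 genes became 56 without a filter, 620 with DESeq2, 841 with the exact test, 22 with limma voom, 38 in the 4 libraries, 992 with the term, and 0 to 56 when each library was left out.

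HR4 was lower in BP12-2 under all 17 alternatives (log2 fold change -1.47 to -1.21), and 5 of them ended the call. ADR1 ran from -0.78 to -0.50. NRG1.1 reversed without BP12-2 replicate 2, BP12-2 replicate 3 or WT replicate 3 (0.02, 0.12 and 0.15) and ran from -0.33 to 0.15 over the omissions. With coding length in place of exon length ADR1-L1 exceeded ADR1-L2 by 12.6 RPKM, against 0.220, and HR4 lay above ADR1-L2 in BP12-2. HR1, HR2 and HR3 are limited by their read counts. The cause of these changes was not tested.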
